A study of Homo sapiens with 12 samples.

Results

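The transcriptional response of HepG2 tumour spheroids to knockdown of HIF-2α was examined by comparing 4 HIF-2α knockdown arrays with 4 wild type arrays, 8 of the 12 arrays of the series. The arrays were chosen by their genotype label alone. All 18404 genes with a probe set that names exactly 1 gene were compared, each represented by its brightest such probe set over the 12 arrays. HepG2 is a human hepatocellular carcinoma cell line that keeps many hepatocyte functions. Both groups were grown as spheroids in stirred spinner flasks and were 10 days old when RNA was taken, and no drug or oxygen treatment is named for either. The only labelled difference between them is the genotype, wild type or HIF-2α knockdown. The remaining 4 arrays, of HIF-1α knockdown spheroids of the same line and age, serve here as a second reference and add to the estimate of the spread between arrays. RNA came from column purification, was amplified by a kit whose protocol the labels describe for 250 microdissected cells, and was biotin-labelled and hybridised to Affymetrix arrays. The 4 arrays of a genotype stand for different spheroid experiments according to the series' design text, so that the p-values measure the spread between them. The sources used here do not give how the knockdown was made, whether it was a single clone or what control construct, if any, was in the wild type cells.

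Hypoxia-inducible factors are dimers of an oxygen-regulated α subunit and ARNT, also called HIF-1β. With oxygen present, prolyl hydroxylases of the EGLN family mark the α subunit for destruction through VHL. When oxygen is short, as in the core of a spheroid, the α subunits persist, bind short DNA elements with the core letters ACGTG or GCGTG and raise transcription. HIF-1α is best known for driving glycolytic genes, and HIF-2α, encoded by EPAS1, for erythropoietin, iron handling and lipid metabolism in liver.

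Each value is a log2 signal, where 1 unit is a doubling, and n = 4 arrays in each group. Called means an adjusted p below 0.05 in limma over the 18404 genes. Any pair of arrays correlated across probe sets at r of 0.984 or more. The floor (the 0.1 percentile) was raised on 3 arrays, HIF-2α knockdown replicate 4 and replicates 1 and 2 of wild type, at 6.33 to 6.35 against 6.11 to 6.23 elsewhere. Their interquartile ranges were narrower, at 1.70 to 1.84 against 1.94 to 2.04 elsewhere. The first principal component, 24.1% of the variance over the 12 arrays, split both genotypes. It read 18.6, 15.4, 0.17 and -2.21 in wild type replicates 1 to 4 and -9.17, 13.6, -0.21 and 22.4 in HIF-2α knockdown replicates 1 to 4. HIF-2α knockdown replicate 2 lay farthest from its nearest neighbour, with a smallest root mean square difference of 0.228 to any other array. It also had the lowest array weight, 0.373. Array weights, higher where an array varies less about its group, were 1.165 to 3.039 in HIF-1α knockdown. They were 0.4775 to 1.335 in wild type and 0.3733 to 1.561 in HIF-2α knockdown. The hepatocyte markers were bright in both groups, with ALB at 13.36 to 14.27, AFP at 12.64 to 13.54 and APOA1 at 11.11 to 11.88. Markers of other cells were not uniformly low, and the table holds no detection calls. PTPRC at 6.41 to 6.70, CDH5 at 6.84 to 7.02 and DCN at 6.36 to 6.66 lay below the wild type median of all genes, 7.68. The endothelial marker PECAM1 lay above it at 7.73 to 8.37, and the fibroblast marker COL1A1 lay around it at 7.51 to 7.71. LYZ and CD68, both on the macrophage list, were bright on every array. None of these 7 markers was called, and their part in the results was not tested. In such bulk samples fewer cells of a type and less RNA per cell cannot be told apart.

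EPAS1, the targeted transcript, was lower on every HIF-2α knockdown array. It read 10.96, 10.83, 10.97 and 11.26 in wild type replicates 1 to 4 and 9.67, 10.02, 9.87 and 9.98 in HIF-2α knockdown replicates 1 to 4. The groups did not overlap, and 46.0% of the wild type signal remained (difference -1.12, SE 0.09, limma adjusted p = 0.000206). The two-sided exact permutation test gave p = 0.0286, the smallest that 4 against 4 arrays allow. In HIF-1α knockdown EPAS1 averaged 10.98, and the HIF-2α knockdown arrays lay 1.09 lower than that (difference -1.09, adjusted p = 3.66e-05).

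Apart from EPAS1, only CITED2 passed the test on the list of HIF subunits and oxygen sensors. Of the 13 measured members of that list, 0 were called higher and 2 lower, EPAS1 itself and CITED2, and the list's median difference was -0.04 against -0.01 over all genes. Over all genes 0.788% were called, 0.478% higher and 0.31% lower. At these shares any of the gene lists below can hold 0 called members without differing from all genes. HIF1A read 10.62 to 10.79 in wild type and 10.86, 11.46, 10.52 and 10.92 in HIF-2α knockdown, so the groups overlapped, and replicate 2 was the highest array. Its difference was 0.24 (SE 0.15, adjusted p = 0.587, exact permutation p = 0.257), where HIF-1α knockdown had lowered it by 1.23 (difference -1.23, adjusted p = 0.00241). ARNT, the partner subunit, differed by 0.20 (adjusted p = 0.258), and its relatives ARNT2 and BMAL1 by -0.14 (adjusted p = 0.368) and 0.18 (adjusted p = 0.145). HIF3A, the third α subunit, differed by -0.10. Among the sensors, EGLN3, itself inducible by HIF, read 7.27 to 7.45 in wild type and 7.01 to 7.19 in HIF-2α knockdown, without overlap, yet missed the threshold (difference -0.23, adjusted p = 0.0955). EGLN1 differed by 0.01, HIF1AN, which hydroxylates an asparagine in the α subunits, by -0.04 and VHL by 0.05. The coactivators EP300 and CREBBP differed by 0.09 and -0.07.

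CITED2, an HIF-inducible protein that competes with HIF α subunits for EP300 and CREBBP, fell. It read 9.28, 9.38, 9.54 and 9.52 in wild type and 8.86, 8.96, 8.96 and 8.78 in HIF-2α knockdown, and the lowest wild type array stayed above the highest knockdown array. The difference was -0.54 (SE 0.10, adjusted p = 0.0209), and it was also lower than in HIF-1α knockdown (difference -0.53, adjusted p = 0.0108). The call was lost without wild type replicate 2 or 4 or HIF-2α knockdown replicate 1 or 4 (adjusted p = 0.0502 to 0.0797).

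Against wild type 145 genes passed the test, of which 88 rose and 57 fell. The falls were larger than the rises: 12 genes fell and 3 rose by at least 2-fold, and 30 fell and 20 rose by at least 1.5-fold. The median fold was 1.516 among the genes called lower and 1.337 among those called higher. The arrays of the 2 groups did not overlap for any called gene, whereas over all 18404 genes 626 lay wholly higher (3.4%) and 352 wholly lower (1.91%). All 145 kept their sign in each of the 17 other settings that fitted them. The filter on dim genes fitted only 10750 genes. The split between rises and falls did not hold across scalings, since quantile normalization gave 141 rises and 263 falls, and median centring of the arrays gave 34 rises and 38 falls. The count also moved with single arrays: it was 91 without wild type replicate 1, 81 without replicate 2, 219 without replicate 3, 61 without replicate 4 and 64 without HIF-2α knockdown replicate 1. Without HIF-2α knockdown replicate 2, the array that stood apart, it was 106, of which 85 were called in the same direction with all arrays. Without the 3 arrays with a raised floor it was 37, and 26 of those were among the 145. With only the 8 arrays of the 2 groups fitted it was 64, of which 28 were higher and 36 lower.

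**Figure D1:**
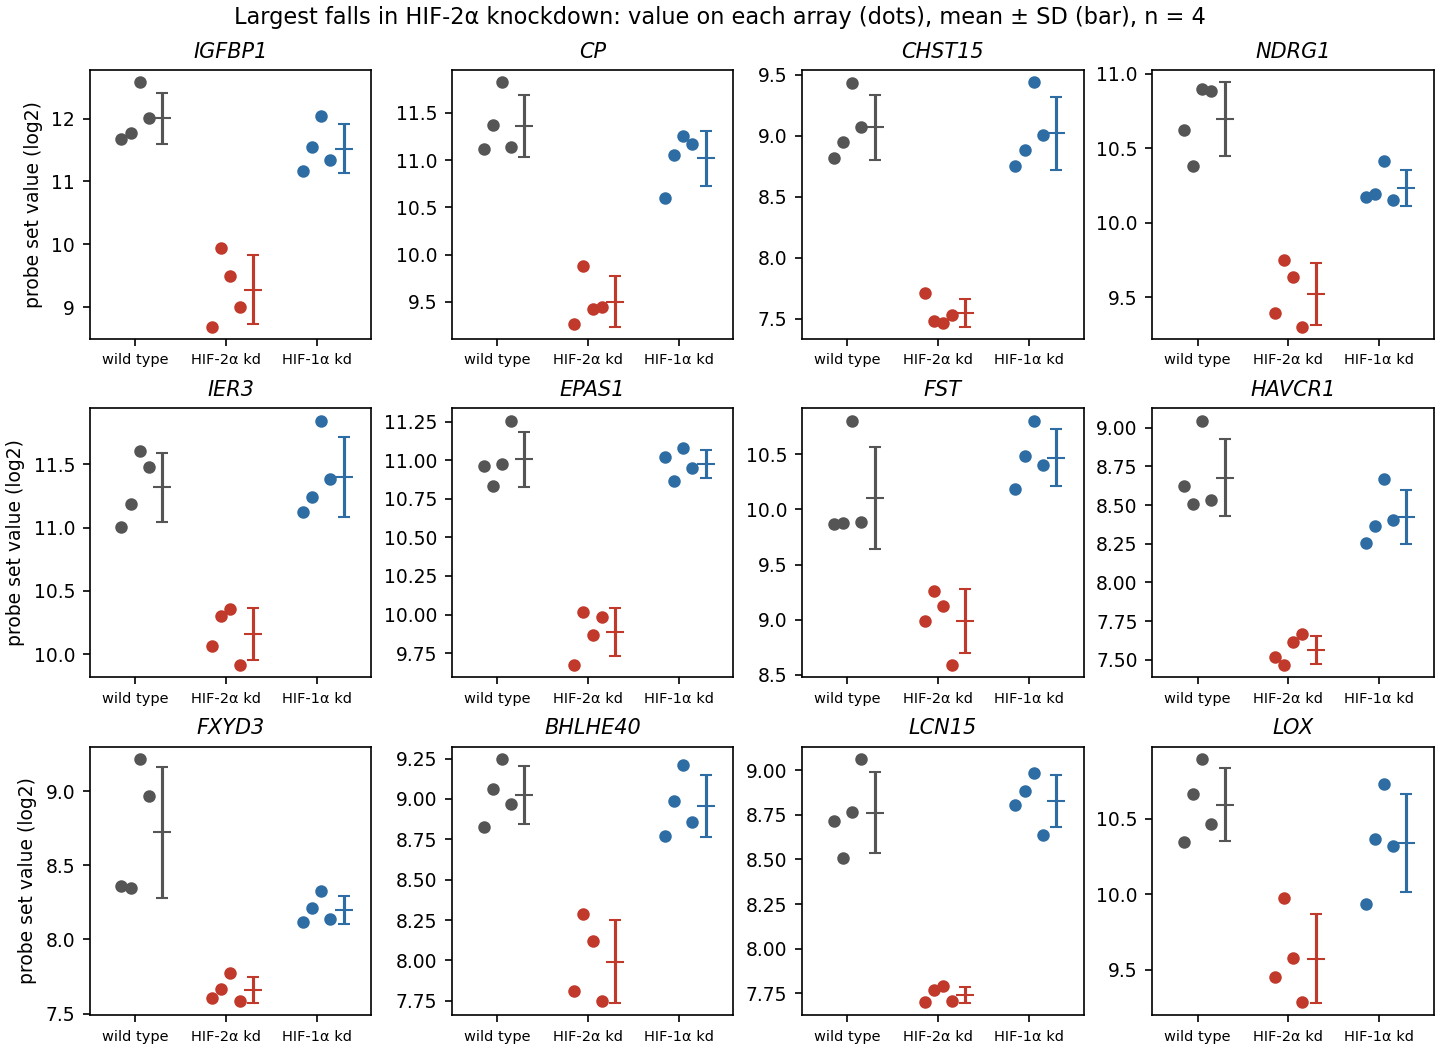
Probe set values (log2, vertical axes, own scale for each gene) of the 12 genes with the largest falls on each array of wild type (grey), HIF-2α knockdown (red) and HIF-1α knockdown (blue); dots are arrays, and the bar beside them is the mean ± SD of 4 arrays. In each panel all 4 HIF-2α knockdown arrays sit below all 4 wild type arrays, and IGFBP1 shows the widest gap.

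The deepest fall was in IGFBP1, a secreted liver protein that binds insulin-like growth factors and is induced by hypoxia. IGFBP1 read 11.67, 11.77, 12.58 and 12.02 in wild type and 8.69, 9.94, 9.49 and 9.0 in HIF-2α knockdown. The difference was -2.73 (SE 0.27, adjusted p = 0.000349), a 6.62-fold fall, with replicate 2 the highest of the knockdown arrays. In HIF-1α knockdown it read 11.16 to 12.05, and the HIF-2α knockdown arrays lay well below that mean (difference -2.24, adjusted p = 0.000518). Elsewhere in the insulin-like growth factor system nothing else was called: 1 of 20 measured members fell and 0 rose, and the list's median difference was -0.06. IGFBP4 was the next largest at -0.20 (adjusted p = 0.262).

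CP, ceruloplasmin, the copper-carrying ferroxidase that hepatocytes secrete to load iron onto transferrin, fell 3.64-fold. It read 11.12, 11.38, 11.82 and 11.14 in wild type and 9.26, 9.88, 9.42 and 9.44 in HIF-2α knockdown, and the groups were far from overlapping. The difference was -1.86 (SE 0.18, adjusted p = 0.000324), and against HIF-1α knockdown it was -1.52 (adjusted p = 0.000444). Among 26 measured genes of iron and copper handling CP was the 1 called lower. The 1 called higher was STEAP2, a metalloreductase, at 8.02 to 8.18 in wild type and 8.30 to 8.64 in HIF-2α knockdown. Its difference was 0.41 (SE 0.07, adjusted p = 0.0201), and the call was lost without wild type replicate 1, 2 or 4 or HIF-2α knockdown replicate 1 (adjusted p = 0.0515 to 0.0742). The list's median was 0.01, and -0.04 after quantile normalization. TF, transferrin, differed by -0.33 (adjusted p = 0.468).

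CHST15, the sulfotransferase that makes the disulfated unit of chondroitin sulfate E, fell 2.87-fold. It read 8.82, 8.95, 9.43 and 9.07 in wild type and 7.71, 7.48, 7.47 and 7.53 in HIF-2α knockdown, and every knockdown array lay below every wild type array. The difference was -1.52 (SE 0.14, adjusted p = 0.000324), against -0.05 (adjusted p = 0.93) for HIF-1α knockdown minus wild type, and the direct difference between the knockdowns was -1.47 (adjusted p = 0.000113). It was the 1 called gene of 36 measured in chondroitin and heparan sulfate synthesis, whose median difference was -0.07. CHPF, a chondroitin polymerising factor, differed by -0.27 (adjusted p = 0.443).

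Of 43 measured hypoxia-induced genes outside glycolysis, 3 fell and 0 rose. NDRG1, a stress-responsive growth regulator, read 10.62, 10.38, 10.89 and 10.89 in wild type and 9.39, 9.75, 9.64 and 9.30 in HIF-2α knockdown (difference -1.17, SE 0.12, adjusted p = 0.000517). BHLHE40, a transcriptional repressor of the circadian and hypoxia responses, read 8.83, 9.06, 9.25 and 8.97 in wild type and 7.81, 8.29, 8.12 and 7.75 in HIF-2α knockdown (difference -1.03, SE 0.13, adjusted p = 0.00206). LOX, the lysyl oxidase that cross-links collagen, read 10.35, 10.66, 10.90 and 10.47 in wild type and 9.45, 9.97, 9.58 and 9.28 in HIF-2α knockdown (difference -1.02, SE 0.17, adjusted p = 0.0159). None of the 3 had an overlapping array, and all 3 were also lower than in HIF-1α knockdown (adjusted p = 0.00682, 0.00124 and 0.0302). The LOX call was lost without wild type replicate 2 (adjusted p = 0.0502) or HIF-2α knockdown replicate 1 (adjusted p = 0.0534). When the 3 raised-floor arrays were left out, NDRG1 was still called (adjusted p = 0.00812), and BHLHE40 (0.0614) and LOX (0.155) were not.

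The remaining 40 hypoxia-induced genes were not called, and the list's median difference was -0.09, with 34 of 43 differences negative against 10190 of 18404 over all genes. Several familiar members, named after their values were seen, were not called. VEGFA, the main angiogenic growth factor, differed by -0.18 (adjusted p = 0.22), ADM, adrenomedullin, by -0.08 and ANGPTL4 by -0.03. EPO, the hormone of red cell production, read 8.47 to 8.65 in wild type and 8.25 to 8.41 in HIF-2α knockdown, without overlap, but was not called (difference -0.23, adjusted p = 0.245). The collagen hydroxylase genes PLOD2 and P4HA1 differed by -0.52 (adjusted p = 0.18) and -0.36 (adjusted p = 0.38). Of 29 measured angiogenic factors 0 were called in either direction, with a median of -0.04.

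Promoter sequence is shown for CHST15, BHLHE40, LOX and CITED2, since these genes fell and the 250 bases before their start hold the HIF core letters. They were chosen after both their values and their sequences were seen. Sequences are from RefSeq, build GRCh38.p14, written 5′ to 3′ on the gene's strand and ending at the base before the start. Capitals mark ACGTG or GCGTG on either strand, which read CACGT or CACGC where the match is on the other strand. The letters CACGTG hold a match on both strands and count as 2 matches. CHST15 lies on the minus strand at chr10:124093599-124093848, BHLHE40 on the plus strand at chr3:4979187-4979436, LOX on the minus strand at chr5:122078260-122078509 and CITED2 on the minus strand at chr6:139374649-139374898.
CHST15: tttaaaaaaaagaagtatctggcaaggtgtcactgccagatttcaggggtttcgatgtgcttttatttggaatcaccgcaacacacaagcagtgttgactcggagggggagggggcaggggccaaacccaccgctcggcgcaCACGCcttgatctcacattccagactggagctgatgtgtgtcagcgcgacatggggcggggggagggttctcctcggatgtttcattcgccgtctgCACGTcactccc
BHLHE40: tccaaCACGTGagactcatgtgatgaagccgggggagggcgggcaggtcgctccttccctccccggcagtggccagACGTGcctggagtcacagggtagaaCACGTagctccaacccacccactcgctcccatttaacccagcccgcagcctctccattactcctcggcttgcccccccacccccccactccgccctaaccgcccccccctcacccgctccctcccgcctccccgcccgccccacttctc
LOX: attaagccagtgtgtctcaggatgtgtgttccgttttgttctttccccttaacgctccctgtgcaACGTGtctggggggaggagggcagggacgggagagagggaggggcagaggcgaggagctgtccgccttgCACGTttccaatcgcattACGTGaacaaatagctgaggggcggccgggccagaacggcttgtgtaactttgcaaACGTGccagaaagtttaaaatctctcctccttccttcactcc
CITED2: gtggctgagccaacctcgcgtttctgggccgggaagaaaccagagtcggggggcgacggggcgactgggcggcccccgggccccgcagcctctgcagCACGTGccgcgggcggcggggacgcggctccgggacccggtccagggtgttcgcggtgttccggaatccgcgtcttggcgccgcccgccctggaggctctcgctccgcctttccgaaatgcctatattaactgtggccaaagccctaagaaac
BHLHE40 and LOX each held 4 matches to ACGTG, CITED2 held 2, and CHST15 held 1 to ACGTG and 1 to GCGTG. Among all 14230 measured genes with a promoter entry, 21.1% held ACGTG, 39.7% GCGTG and 51.1% either. Of the 57 genes called lower 45 had an entry, and of these 14 held ACGTG (31.1%), 9 held GCGTG (20%) and 19 held either (42.2%). Of the 88 called higher 68 had an entry, and 9 held ACGTG (13.2%), 19 held GCGTG (27.9%) and 25 held either (36.8%). Among genes called lower by at least 1.5-fold 22 had an entry, and 5 held ACGTG (22.7%), 3 GCGTG (13.6%) and 6 either (27.3%). For those called higher by at least 1.5-fold 16 had an entry, and 2 held ACGTG (12.5%), 1 GCGTG (6.2%) and 3 either (18.8%). The 4 printed promoters are thus not typical of the larger falls. IGFBP1, CP and NDRG1 had no promoter entry. These matches only describe the letters in this window.

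Of 19 measured glycolysis and glucose uptake genes 4 fell and 0 rose. Negative differences made up 18 of the 19, against 55.4% over all genes, with a median of -0.26. SLC2A3, the high-affinity glucose transporter GLUT3, read 12.42, 12.22, 12.70 and 12.29 in wild type and 11.31, 11.84, 11.29 and 11.59 in HIF-2α knockdown (difference -0.90, SE 0.14, adjusted p = 0.0102). SLC2A1, the transporter GLUT1, read 12.71, 12.40, 13.03 and 12.60 in wild type and 12.01, 12.19, 12.05 and 12.11 in HIF-2α knockdown (difference -0.60, SE 0.11, adjusted p = 0.0214). HK2, the inducible hexokinase, read 9.65 to 10.01 in wild type and 9.26 to 9.49 in HIF-2α knockdown (difference -0.46, SE 0.08, adjusted p = 0.0235). ALDOA, aldolase A, was the smallest of the 4 (difference -0.38, SE 0.07, adjusted p = 0.0305). SLC2A3 has a close copy, SLC2A14, and cross-hybridization was not tested. SLC2A3 kept its call without each array in turn, whereas SLC2A1 lost it without wild type replicate 1 or 4 or HIF-2α knockdown replicate 1 (adjusted p = 0.0525 to 0.0712). HK2 lost its call without wild type replicate 4 or HIF-2α knockdown replicate 1 or 4 (adjusted p = 0.0563 to 0.0832). ALDOA lost it without wild type replicate 1, 3 or 4 or HIF-2α knockdown replicate 1, 3 or 4 (adjusted p = 0.0501 to 0.0932). On the arrays with the usual floor alone the median was -0.35 and 0 of the 19 were called.

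None of these 4 genes was called between HIF-2α and HIF-1α knockdown. The list's median in HIF-1α knockdown minus wild type was -0.29. A low median there was not particular to glycolysis: it was -0.43 for ribosomal protein genes and -0.33 for hepatocyte markers. For oxidative phosphorylation it was -0.04, and over all genes 0.005. The per-array mean of the glycolysis list ran from 10.43 to 10.78 in wild type, from 10.17 to 10.47 in HIF-2α knockdown and from 10.18 to 10.41 in HIF-1α knockdown. Between the knockdowns SLC2A3 differed by -0.25 (adjusted p = 0.517), HK2 by 0.02 (adjusted p = 0.96), ALDOA by -0.09 (adjusted p = 0.72) and SLC2A1 by -0.38 (adjusted p = 0.0844). Both comparisons with wild type use the same 4 wild type arrays, of which replicate 3 was the highest for this list. PKM, GAPDH and LDHA, named after their values were seen, differed from wild type by -0.41 (adjusted p = 0.0523), -0.26 and -0.20. In gluconeogenesis and glycogen metabolism 0 of 18 genes were called, and G6PC1, the catalytic subunit of glucose-6-phosphatase, differed by -0.64 (adjusted p = 0.0958).

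FST, follistatin, a secreted activin antagonist, read 9.87, 9.88, 10.80 and 9.88 in wild type and 8.98, 9.26, 9.12 and 8.59 in HIF-2α knockdown (difference -1.12, SE 0.21, adjusted p = 0.0242). Wild type replicate 3 stood well above the other wild type arrays, and the call was lost without wild type replicate 4 or HIF-2α knockdown replicate 1 or 4 (adjusted p = 0.0523 to 0.0687). GDF15, a stress-induced member of the TGF-β superfamily, read 10.97 to 11.13 in wild type and 10.20 to 10.48 in HIF-2α knockdown (difference -0.74, SE 0.10, adjusted p = 0.00313). In HIF-1α knockdown GDF15 stood at 11.30 to 11.78, so the direct difference between knockdowns was wider (difference -1.14, adjusted p = 3.66e-05). CCN2, connective tissue growth factor, also fell (difference -0.67, SE 0.11, adjusted p = 0.0156). These 3 were the only called genes among 33 of the TGF-β and activin list, whose median was -0.02. CCN2 was also the 1 called gene of 31 in the Hippo pathway list, where ANKRD1, another YAP target, differed by -0.61 (adjusted p = 0.252).

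IER3, an immediate early gene that regulates apoptosis, read 11.01, 11.18, 11.61 and 11.48 in wild type and 10.06, 10.30, 10.36 and 9.92 in HIF-2α knockdown (difference -1.16, SE 0.16, adjusted p = 0.00433). It was called in all 17 other settings and was 1.24 lower than in HIF-1α knockdown (difference -1.24, adjusted p = 0.00101). SPRY4, an inhibitor of receptor tyrosine kinase signalling, was the other called member of 30 immediate early genes (difference -0.56, SE 0.12, adjusted p = 0.0437). Its call was lost without any 1 of the 8 arrays other than wild type replicate 2 (adjusted p = 0.054 to 0.117). Of the 30, 24 had negative differences, against 55.4% over all genes, with a median of -0.07. MAML2, a Notch coactivator, fell (difference -0.77, SE 0.12, adjusted p = 0.0111) as the 1 called gene of 27 in the Notch pathway, where HEY1, a Notch target, differed by -0.46 (adjusted p = 0.0954). NEDD9, a scaffold of focal adhesions, read 10.87 to 11.31 in wild type and 10.25 to 10.54 in HIF-2α knockdown (difference -0.72, SE 0.11, adjusted p = 0.0102). IL6R, the interleukin-6 receptor, named after its values were seen, fell by 0.48 on the log2 scale (adjusted p = 0.0109) and was called in every setting. In the WNT list 0 of 21 genes were called.

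HAVCR1, the kidney injury molecule of proximal tubule cells, read 8.62, 8.51, 9.05 and 8.53 in wild type and 7.52, 7.47, 7.61 and 7.66 in HIF-2α knockdown (difference -1.11, SE 0.11, adjusted p = 0.000486). FXYD3, a regulator of the sodium pump, read 8.36, 8.35, 9.22 and 8.97 in wild type and 7.61, 7.67, 7.78 and 7.58 in HIF-2α knockdown (difference -1.06, SE 0.16, adjusted p = 0.00684). Its relative FXYD1 read 8.28 to 8.60 in wild type and 7.49 to 7.83 in HIF-2α knockdown (difference -0.82, SE 0.09, adjusted p = 0.00107). All 3 were called in every setting and without overlap. FXYD3 read 8.12 to 8.33 in HIF-1α knockdown, and the knockdowns were not called different (difference -0.54, adjusted p = 0.0993), whereas HAVCR1 and FXYD1 were lower than in HIF-1α knockdown (adjusted p = 0.0012 and 0.00349). SLC4A11, a borate-related transporter of protons and water, fell by 0.83 (adjusted p = 0.00543) and CAVIN2, a coat protein of caveolae, by 0.72 (adjusted p = 0.00626).

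LCN15, a lipocalin, read 8.71, 8.51, 8.76 and 9.06 in wild type and 7.70, 7.77, 7.79 and 7.71 in HIF-2α knockdown (difference -1.02, SE 0.10, adjusted p = 0.000349). CKB, the brain-type creatine kinase, read 11.02, 10.80, 11.01 and 11.19 in wild type and 10.03, 10.23, 10.35 and 10.24 in HIF-2α knockdown (difference -0.80, SE 0.10, adjusted p = 0.00197). GATM, which makes the creatine precursor guanidinoacetate, fell by 0.44 (adjusted p = 0.00626), and in HIF-1α knockdown it was also 0.44 below wild type (difference -0.44, adjusted p = 0.00686). RNASET2, a lysosomal ribonuclease, fell by 0.96 (adjusted p = 0.0055). LGALS3, galectin 3, fell by 0.82 (adjusted p = 0.0167), a call lost without wild type replicate 2 (adjusted p = 0.0515) or 4 (adjusted p = 0.0628). PIGZ, a mannosyltransferase of membrane anchors, fell by 0.70 (adjusted p = 0.0167), a call lost without wild type replicate 4 (adjusted p = 0.0673).

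GPX3, the secreted glutathione peroxidase, read 11.26, 11.14, 11.82 and 11.10 in wild type and 10.50, 10.71, 10.35 and 10.18 in HIF-2α knockdown (difference -0.90, SE 0.17, adjusted p = 0.0251). The call was lost without wild type replicate 1 or HIF-2α knockdown replicate 1, 3 or 4 (adjusted p = 0.0532 to 0.0652). CYP24A1, the mitochondrial enzyme that breaks down active vitamin D, read 10.46 to 10.59 in wild type and 9.90, 10.14, 9.16 and 9.51 in HIF-2α knockdown (difference -0.83, SE 0.16, adjusted p = 0.0324). It was the 1 called gene of 28 cytochromes P450, and the call was lost without any wild type replicate or without HIF-2α knockdown replicate 1 or 4 (adjusted p = 0.0517 to 0.0956). CYP24A1 was 1.13 below HIF-1α knockdown (difference -1.13, adjusted p = 0.00216). Smaller falls were seen in DSP, desmoplakin (-0.49), CD24, a progenitor surface marker (-0.63), HYOU1, a chaperone of the endoplasmic reticulum (-0.32), SERPINE2, a protease inhibitor (-0.45), and PDGFRB, a growth factor receptor (-0.40). SERPINE2 and PDGFRB kept their calls without each array in turn. CD24, DSP and HYOU1 lost theirs without any of 7, 5 and 8 of the 8 arrays, with adjusted p up to 0.104, 0.08 and 0.129. The arrays that kept the call were HIF-2α knockdown replicate 2 for CD24, and for DSP wild type replicate 3 and HIF-2α knockdown replicates 2 and 3.

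**Figure D2:**
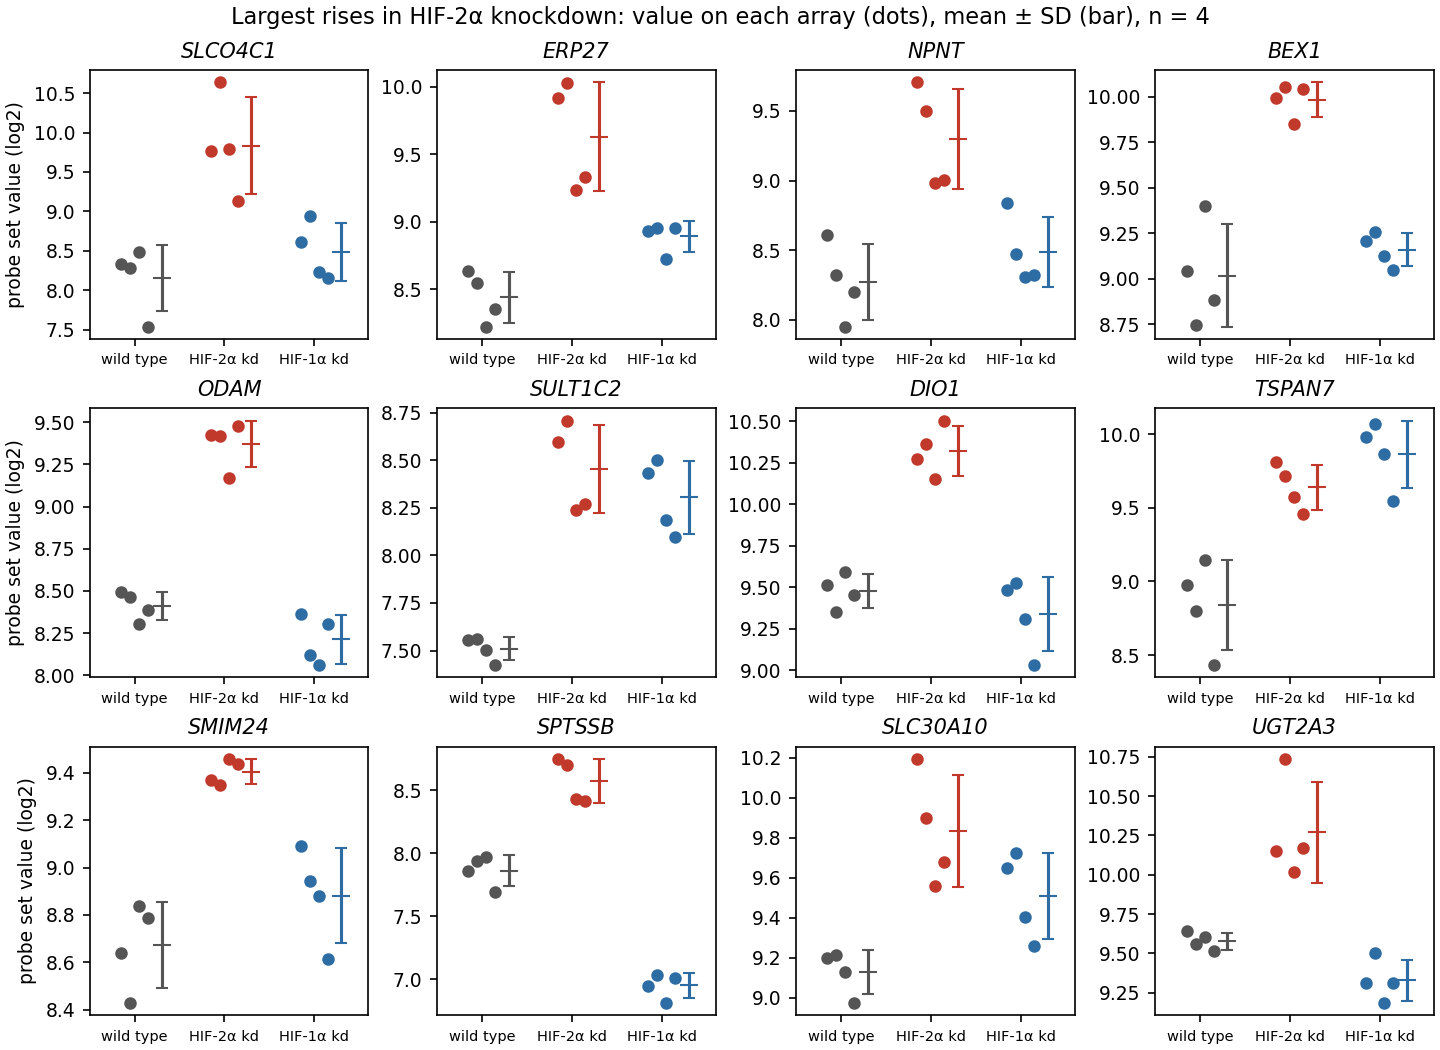
Probe set values (log2, vertical axes, own scale for each gene) of the 12 genes with the largest rises on each array of wild type (grey), HIF-2α knockdown (red) and HIF-1α knockdown (blue); dots are arrays, and the bar beside them is the mean ± SD of 4 arrays. In each panel all 4 HIF-2α knockdown arrays sit above all 4 wild type arrays; SLCO4C1 has the largest difference and SPTSSB the lowest HIF-1α knockdown values relative to wild type.

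The largest rise was in SLCO4C1, an organic anion transporter best known from the kidney. It read 8.33, 8.28, 8.48 and 7.54 in wild type and 9.77, 10.64, 9.79 and 9.13 in HIF-2α knockdown, with wild type replicate 4 the lowest and HIF-2α knockdown replicate 2 the highest. The difference was 1.68 (SE 0.28, adjusted p = 0.0156), a 3.19-fold rise, and the call was lost without wild type replicate 4 (difference 1.47, adjusted p = 0.052). A second probe set of SLCO4C1, at 6.59 in wild type, differed by 0.14. It was the 1 called gene of 25 organic anion and drug transporters. ERP27, a folding protein of the endoplasmic reticulum, read 8.64, 8.55, 8.22 and 8.35 in wild type and 9.92, 10.03, 9.24 and 9.33 in HIF-2α knockdown (difference 1.19, SE 0.16, adjusted p = 0.00313). It was called in every setting, and within 30 folding genes of the endoplasmic reticulum ERP27 was the 1 called higher and HYOU1 the 1 called lower. NPNT, nephronectin, a matrix ligand of integrins, read 8.61, 8.32, 7.95 and 8.20 in wild type and 9.70, 9.50, 8.98 and 9.01 in HIF-2α knockdown (difference 1.03, SE 0.18, adjusted p = 0.0178). Its call was lost without wild type replicate 4 (adjusted p = 0.0673) or HIF-2α knockdown replicate 1 (adjusted p = 0.0507). With LOX in the other direction, NPNT was the only other called gene of 40 in the matrix list.

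BEX1, a small neural signalling adaptor, read 9.04, 8.75, 9.40 and 8.89 in wild type and 10.00, 10.05, 9.85 and 10.04 in HIF-2α knockdown (difference 0.97, SE 0.11, adjusted p = 0.00119). ODAM, a secreted epithelial protein named for tooth enamel, read 8.49, 8.46, 8.30 and 8.39 in wild type and 9.42, 9.42, 9.17 and 9.48 in HIF-2α knockdown. Its difference of 0.96 (SE 0.08, adjusted p = 0.000206) had the smallest adjusted p among the rises. SPTSSB, a small subunit of the enzyme that starts sphingolipid synthesis, read 7.86, 7.94, 7.97 and 7.69 in wild type and 8.75, 8.70, 8.43 and 8.41 in HIF-2α knockdown (difference 0.71, SE 0.09, adjusted p = 0.00206). In HIF-1α knockdown SPTSSB was lower than wild type (difference -0.91, adjusted p = 0.000339), so the knockdowns stood 1.62 apart (adjusted p = 7.23e-07). OPN3, an opsin of non-visual tissues, rose by 0.50 (adjusted p = 0.00133) and, like ERP27, ODAM and SPTSSB, was called in every setting.

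SULT1C2, a sulfotransferase, read 7.56, 7.56, 7.50 and 7.43 in wild type and 8.59, 8.71, 8.24 and 8.27 in HIF-2α knockdown (difference 0.94, SE 0.11, adjusted p = 0.00133). It was also higher than wild type in HIF-1α knockdown (difference 0.79, adjusted p = 0.00454), and the knockdowns were not called different (difference 0.15, adjusted p = 0.681). UGT2A3, a glucuronosyltransferase, rose by 0.69 (SE 0.12, adjusted p = 0.0214), and its second probe set differed by 0.42. The UGT2A3 call was lost without wild type replicate 1, 2 or 4 (adjusted p = 0.0501 to 0.0797). These were the 2 called genes of 34 phase II conjugating enzymes, of which 23 had positive differences, with a median of 0.11. Over all genes 8214 of 18404 differences were positive. DIO1, the selenoenzyme that activates thyroid hormone, read 9.51, 9.35, 9.59 and 9.45 in wild type and 10.27, 10.36, 10.15 and 10.50 in HIF-2α knockdown (difference 0.85, SE 0.10, adjusted p = 0.00197). DIO1 and GPX3, both selenoproteins, thus moved in opposite directions within a list of 40 antioxidant and selenoprotein genes. AKR1D1, the reductase of bile acid precursors, rose by 0.45 (adjusted p = 0.0438) as the 1 called gene of 25 in bile acid synthesis. That call was lost without wild type replicate 1, 2 or 4 or HIF-2α knockdown replicate 1, 2 or 3 (adjusted p = 0.0547 to 0.13). CYP7A1, the rate-limiting enzyme of bile acid synthesis, read 6.88 to 7.18 in wild type and 7.26 to 8.33 in HIF-2α knockdown, without overlap, and was not called (difference 0.60, adjusted p = 0.143).

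ADH6, an alcohol dehydrogenase, rose by 0.61 (adjusted p = 0.0466), and ABAT, which degrades the transmitter GABA, by 0.51 (adjusted p = 0.00555). The ABAT call was kept without each array in turn, and the ADH6 call was lost without any array other than wild type replicate 3 (adjusted p = 0.0574 to 0.14). CDO1, cysteine dioxygenase, lay just outside the threshold, at 8.37 to 8.83 in wild type and 9.03 to 9.81 in HIF-2α knockdown (difference 0.77, adjusted p = 0.0502). OXCT1, an enzyme of ketone body use, and SHMT1, a serine and folate enzyme, both named after their values were seen, rose by 0.41 (adjusted p = 0.00257) and 0.39 (adjusted p = 0.0159). SLC30A10, a manganese exporter, rose by 0.70 (adjusted p = 0.0247) as the 1 called gene of 30 metal transporters and metallothioneins. Its call was lost without wild type replicate 1, 2 or 4 or HIF-2α knockdown replicate 1 or 2 (adjusted p = 0.0529 to 0.0878). MT2A, a metallothionein, differed by -0.76 (adjusted p = 0.0954).

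Of 45 measured clotting, complement and acute phase genes 3 rose and 0 fell, and 2 of the 3 encode fibrinogen chains. FGB read 9.82, 9.56, 9.74 and 9.78 in wild type and 10.30, 10.53, 10.04 and 10.56 in HIF-2α knockdown (difference 0.63, SE 0.11, adjusted p = 0.0196). FGG read 11.06 to 11.38 in wild type and 11.43 to 12.03 in HIF-2α knockdown (difference 0.60, SE 0.12, adjusted p = 0.0437). F11, clotting factor XI, rose by 0.40 (adjusted p = 0.0318). In HIF-1α knockdown FGB and FGG were lower than wild type (differences -1.75 and -0.68, adjusted p = 9.03e-06 and 0.0207), so the knockdowns stood 2.38 (adjusted p = 1.66e-07) and 1.27 (adjusted p = 0.000107) apart. The FGB call was lost without wild type replicate 2 (adjusted p = 0.0585) or 4 (adjusted p = 0.0527). FGG lost it without wild type replicate 1, 2 or 4 or HIF-2α knockdown replicate 1, 2 or 4 (adjusted p = 0.0586 to 0.13). F11 lost it without wild type replicate 2 or 4 or HIF-2α knockdown replicate 1, 2 or 4 (adjusted p = 0.0554 to 0.0977). The list's median was -0.02. Of 20 apolipoprotein and lipoprotein genes and 24 hepatocyte transcription factors 0 were called.

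Apical and tubular membrane genes had the largest share of called members among the lists, with 6 of 21 higher and 2 lower, HAVCR1 and FXYD3. The list was assembled with earlier results of these data known, so the count describes these arrays and is not independent evidence. TSPAN7, a tetraspanin, read 8.97, 8.80, 9.15 and 8.43 in wild type and 9.81, 9.71, 9.57 and 9.46 in HIF-2α knockdown (difference 0.80, SE 0.14, adjusted p = 0.0209). SMIM24, a small membrane protein, read 8.43 to 8.84 in wild type and 9.35 to 9.46 in HIF-2α knockdown (difference 0.73, SE 0.10, adjusted p = 0.00429). DPP4, the serine peptidase CD26 of brush borders, read 9.90 to 10.48 in wild type and 10.59 to 11.14 in HIF-2α knockdown (difference 0.63, SE 0.13, adjusted p = 0.0438). CUBN, cubilin, an endocytic receptor, rose by 0.36 (adjusted p = 0.0049), CARMIL1, a regulator of actin capping, by 0.35 (adjusted p = 0.00885) and PLEKHH2, a cytoskeletal protein of podocytes, by 0.32 (adjusted p = 0.0484). These 3 were lower than wild type in HIF-1α knockdown (differences -0.26, -0.34 and -0.43), and between the knockdowns they differed by 0.62, 0.69 and 0.75 (adjusted p = 2.82e-05, 1.83e-05 and 6.42e-05). PROM1, prominin 1 of membrane protrusions, also went opposite ways, at 0.48 above wild type (adjusted p = 0.0123) in HIF-2α knockdown and -0.39 (adjusted p = 0.0326) in HIF-1α knockdown.

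Calls in this list rested on single arrays to different degrees. SMIM24, CUBN and CARMIL1 kept theirs without each array in turn. TSPAN7 lost its call without wild type replicate 2 or 4 or HIF-2α knockdown replicate 1 or 2 (adjusted p = 0.0512 to 0.0712), and DPP4 without any array other than wild type replicate 3 (adjusted p = 0.0578 to 0.131). PLEKHH2 lost it without wild type replicate 1, 3 or 4 or HIF-2α knockdown replicate 1, 2 or 3 (adjusted p = 0.0597 to 0.13). On the arrays with the usual floor alone 0 of the 6 rises and both falls were called.

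**Figure D3:**
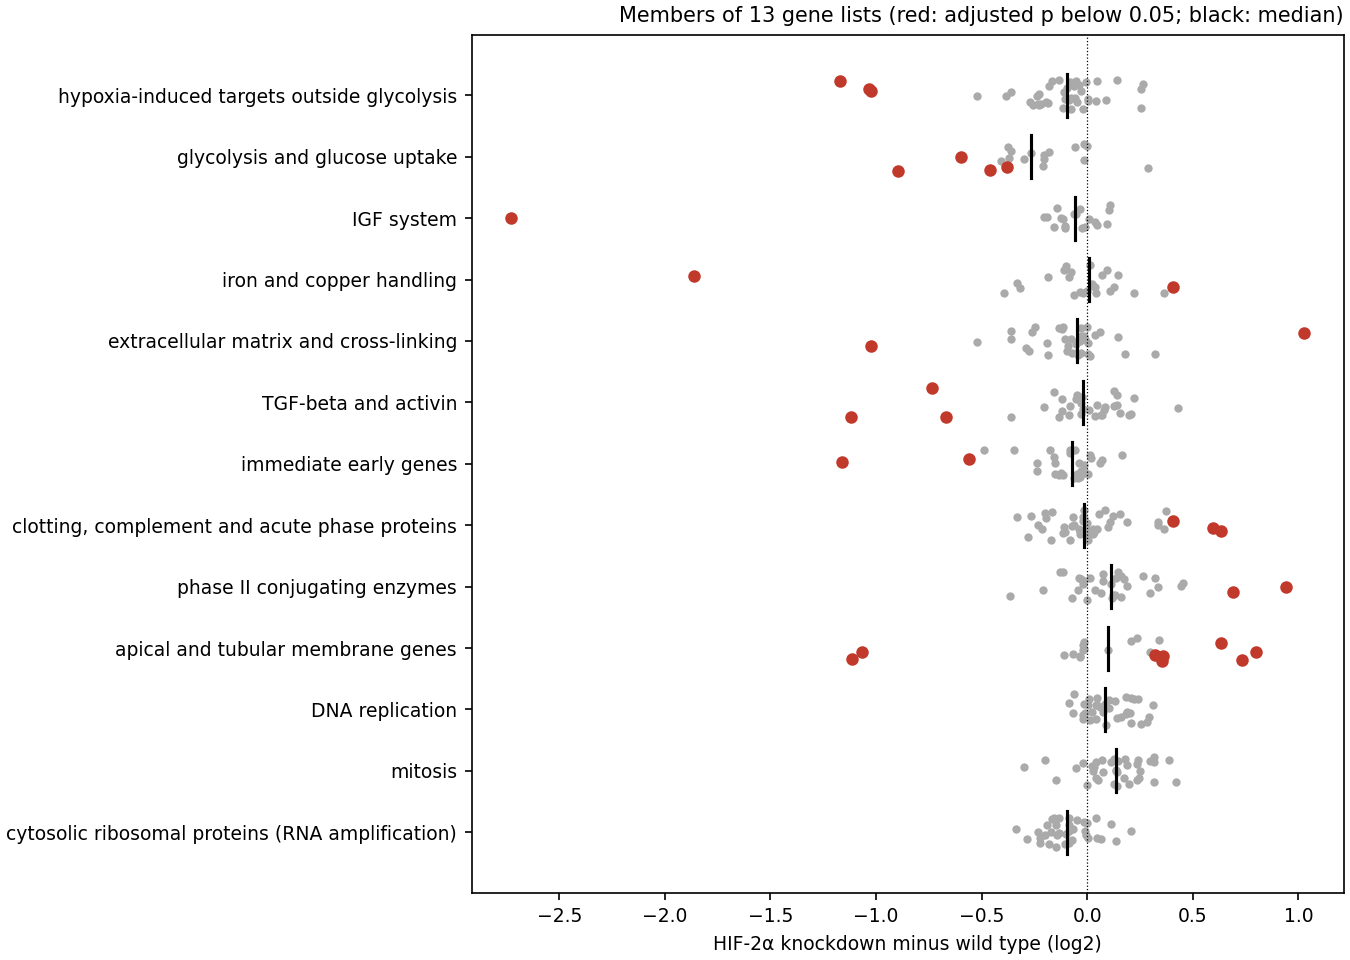
Difference of HIF-2α knockdown from wild type (log2, horizontal axis) for every measured member of 13 gene lists; each dot is a gene, red where the adjusted p was below 0.05, and the black bar is the list median. Most members cluster near 0, IGFBP1 and CP lie far to the left of their lists, and the glycolysis median of -0.26 lies left of the other medians drawn.

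Several large programmes had 0 called members, where over all genes 0.788% were called. At that share lists of this length can hold 0, so these counts do not set the programmes apart. Oxidative phosphorylation (51 genes), sterol and fatty acid synthesis (33), lipid storage and fatty acid oxidation (31), apoptosis and autophagy (28) and the interferon and NF-κB response (38) held none. CCL20, a chemokine of the last list, read 11.07 to 12.16 in wild type and 10.37 to 10.79 in HIF-2α knockdown, without overlap, and missed the threshold (difference -1.0, adjusted p = 0.0523). In the amino acid and integrated stress response list (35 genes) and among p53 targets (27), GDF15 was the 1 called gene of each.

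Of 36 DNA replication genes 0 were called and of 37 mitosis genes 0, where over all genes 0.788% were called. Of the differences 29 and 31 were positive, with medians of 0.09 and 0.14. Over all 18404 genes 8214 differences were positive and 10190 negative. The mean of the mitosis list was 9.82 to 9.89 in wild type and 9.94, 10.28, 9.78 and 9.92 in HIF-2α knockdown, so replicate 2 stood above the others and replicate 3 below every wild type array. Without HIF-2α knockdown replicate 2 the medians were 0.02 for both lists. Ribosomal protein genes, 0 of 36 called, had a median of -0.09 with 29 differences negative, and their per-array means overlapped, at 11.95 to 12.49 in wild type and 11.80 to 12.33 in HIF-2α knockdown. Replication-dependent histones, whose RNA lacks a poly(A) tail, had a median of 0.05, and 0 of 42 were called. The part of RNA amplification in the other results was not tested.

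Among the markers of other cell types PDGFRB alone was called, where over all genes 0.788% were called. At that share lists of this length can hold 0. Of 16 macrophage and leukocyte markers 0 were called, but all 16 differences were negative, against 55.4% over all genes, with a median of -0.06. Their per-array means were 7.51 to 7.66 in wild type and 7.47 to 7.57 in HIF-2α knockdown. Of these 8 arrays the 3 with a raised floor had the highest means, 7.64 and 7.66 in wild type replicates 1 and 2 and 7.57 in HIF-2α knockdown replicate 4. The part of the floor in these differences was not tested. Of 14 endothelial markers 0 were called, with means of 7.0 to 7.08 and 6.95 to 7.02. Of 16 fibroblast and stellate cell markers 1 was called lower, PDGFRB, with means of 7.03 to 7.13 and 7.0 to 7.10. Of 16 hepatocyte markers 14 had negative differences, with a median of -0.11, and the 1 called, FGB, was one of the few that were higher. Their per-array means were 11.48 to 11.88 in wild type and 11.33 to 11.78 in HIF-2α knockdown.

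**Figure D4:**
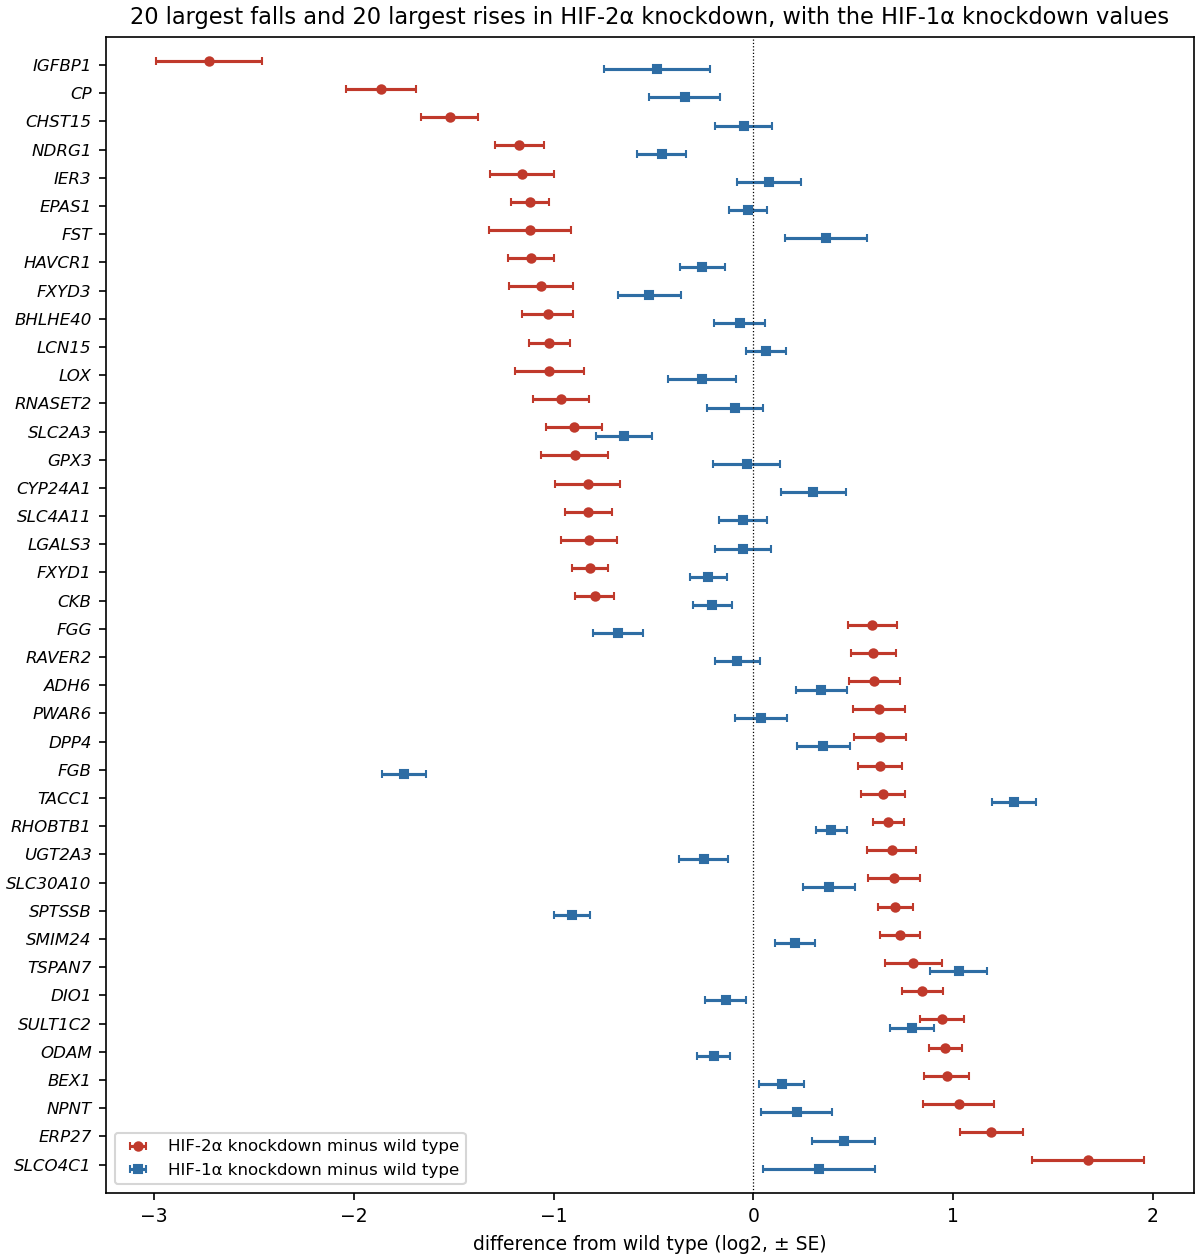
Differences from wild type (log2, horizontal axis, bars are ± SE) for the 20 largest falls and 20 largest rises in HIF-2α knockdown, with HIF-2α knockdown as red circles and HIF-1α knockdown as blue squares; both use the same 4 wild type arrays. IGFBP1 and CP fall by -2.73 and -1.86 in HIF-2α knockdown against -0.48 and -0.34 in HIF-1α knockdown, and FGB, FGG and SPTSSB lie on opposite sides of 0.

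Whether a change differed from that in HIF-1α knockdown was tested directly between the knockdowns. Over all genes 2.77% were called in that comparison, 0.967% higher and 1.8% lower in HIF-2α knockdown, and the count of 509 genes was 274 without HIF-2α knockdown replicate 4. The comparisons with wild type and with HIF-1α knockdown use the same 4 HIF-2α knockdown arrays, so a shared direction is partly built in. The counts that follow are therefore not independent evidence. Of the 57 genes below wild type, 42 were also called below HIF-1α knockdown, 15 were not called and 0 were called above it. Of the 88 genes above wild type, 44 were also called above HIF-1α knockdown, 43 were not called and 1 was called below it. That gene was TACC1, a centrosomal protein, at 0.65 above wild type in HIF-2α knockdown (adjusted p = 0.017) and 1.30 above it in HIF-1α knockdown (adjusted p = 0.000123). The TACC1 call was lost without wild type replicate 1 or 4 or HIF-2α knockdown replicate 1 (adjusted p = 0.0512 to 0.0588). Genes called against wild type but not between the knockdowns included HK2, SLC2A3 and SULT1C2. GATM had a direct difference of -0.00 (adjusted p = 0.995) and TSPAN7 of -0.23 (adjusted p = 0.586). Their missing calls do not show that the knockdowns act alike. SERPINE2 went the other way, lower than wild type in HIF-2α knockdown (difference -0.45, adjusted p = 0.0128) and higher in HIF-1α knockdown (difference 0.42, adjusted p = 0.0171), with a direct difference of -0.86 (adjusted p = 3.66e-05).

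The calls that held most widely were few and were mainly falls. In all 17 other settings 14 genes were called lower: IGFBP1, CP, CHST15, NDRG1, IER3, EPAS1, HAVCR1, FXYD3, LCN15, FXYD1, CKB and GATM, with APOBEC3C and IL6R, which were named after their values were seen. In the same 17 settings 6 were called higher: ERP27, ODAM, SULT1C2, SPTSSB and OPN3, with OXCT1. APOBEC3C, a cytidine deaminase that restricts retroelements, fell by 0.64 (adjusted p = 0.00313). Leaving out each of the 8 arrays in turn, 27 of the 57 falls and 22 of the 88 rises kept their call every time.

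**Figure D5:**
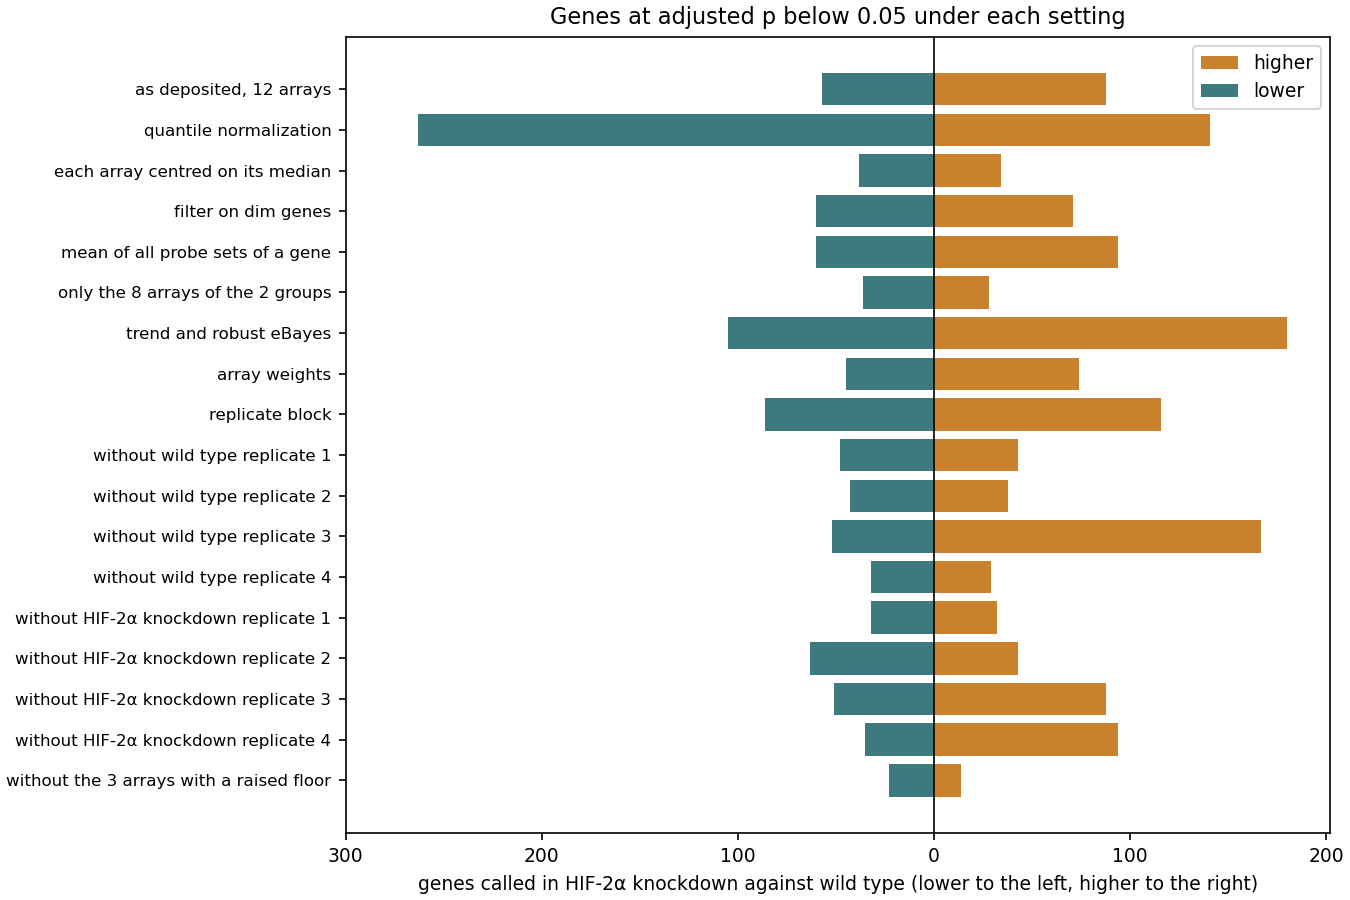
Number of genes called in HIF-2α knockdown against wild type (horizontal axis; lower to the left, higher to the right) on the deposited values and under each of 17 other settings (rows). The bars run from 37 genes in all without the 3 arrays with a raised floor to 404 after quantile normalization, and the direction that holds more genes changes between settings.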

How the data were processed

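The members and gene lists were chosen with earlier results of these data known. The deposited table holds 1 value per probe set and array for 32321 probe sets on 12 arrays. The authors' values were taken as log2 from their range of 5.93 to 15.05. The sources used here do not give their background correction, summarization or normalization. No detection calls were used, and precision is limited by how many arrays there are.

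The platform annotation gave 1 symbol to 19158 probe sets, several to 1388 and none to 11775. Symbols were updated through RefSeq for 19128 of them by Entrez identifier and 4 by symbol, and 26 were kept. For 637 genes with more than 1 probe set the brightest over the 12 arrays was used, giving 18404 genes.

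Group means of the 3 genotypes were fitted to all 12 arrays with limma 3.58.1 in R 4.3.3 (lmFit and eBayes), and p-values were adjusted by Benjamini-Hochberg over all 18404 genes. EPAS1 and HIF1A were also tested with an exact permutation test over arrays. No array copied another, as the root mean square difference of any pair was at least 0.137. Named genes are the HIF list, the 25 largest called rises and the 25 largest called falls, in each list the called members up to 8 (or, where fewer than 2 were called, the 2 with the largest difference), and up to 8 genes in each direction called against both other genotypes, 127 in all. In simulated data of 18404 genes for this comparison 50 genes were changed at each size. Of these 54% were recovered at 1.25-fold, 88% at 1.5-fold, 98% at 2-fold and 100% at 3-fold, and 14 unchanged genes were called. Each simulated gene was drawn independently with 1 spread for all 3 groups, without shared array effects. These rates check the fitting code and may not hold for the real arrays, which differ in spread. Alternatives were quantile normalization, median centring, a filter on dim genes, the mean of a gene's probe sets, a fit to 8 arrays, trend and robust moderation, array weights, a replicate block, and leaving out each array or the 3 with a raised floor.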

Additional observations from a re-analysis of the deposited data

Results flagged for a closer look

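Among 342 sets of 4 arrays (a gene's or a list's values in 1 genotype), 21 had 1 array far from the other 3 for its range. Chance gives such a gap in about 1 in 20 sets.

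HIF-2α knockdown replicate 2 was the high array for 3 genes that rose. RHOBTB1 read 10.68 there against 10.31 to 10.34 on the other 3 arrays, DPP4 11.14 against 10.59 to 10.66, and PWAR6, a non-coding RNA, 8.493 against 8.035 to 8.099. The same array was high for PROX1, a hepatocyte transcription factor that was not called, at 9.954 against 9.524 to 9.548. It was also high for the means of 4 lists: the HIF subunits and sensors (8.885 against 8.762 to 8.776), the plasminogen activators and serpins (9.375 against 9.266 to 9.284), the organic anion and drug transporters (8.172 against 8.042 to 8.061) and DNA replication (9.949 against 9.701 to 9.723). RHOBTB1 kept its call without that array, and DPP4 (adjusted p = 0.0759) and PWAR6 (adjusted p = 0.0864) lost theirs. PWAR6 also lost its call without any other 1 of the 8 arrays (adjusted p = 0.0521 to 0.091).

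Wild type replicate 3 was the high array for FST, at 10.8 against 9.867 to 9.883. For ADH6 it read 10.65 against 10.09 to 10.17, and for GCA, a calcium-binding protein that rose, 8.289 against 7.95 to 7.972. The GCA call was lost without wild type replicate 1, 2 or 4 or HIF-2α knockdown replicate 1 (adjusted p = 0.052 to 0.0646). It also stood high for the uncalled genes G6PC1 (8.849 against 7.93 to 8.047), DKK1, a WNT inhibitor (12.81 against 11.99 to 12.07), and WIPI1, an autophagy protein (10.95 against 10.16 to 10.24). The mean of the cytochrome P450 list was 7.886 there against 7.844 to 7.849.

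SLC4A11 had a high array in both groups, wild type replicate 4 at 9.576 against 9.083 to 9.157 and HIF-2α knockdown replicate 3 at 8.558 against 8.338 to 8.368. Wild type replicate 4 read 9.552 for EP300 against 9.226 to 9.267. CHPF read 9.235 in HIF-2α knockdown replicate 3 against 8.9 to 8.952. There were 2 low arrays, wild type replicate 1 for the adhesion molecule ICAM1 (9.217 against 9.563 to 9.618) and wild type replicate 2 for the histone H2BC3 (8.916 against 9.512 to 9.578).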

How the results depend on the processing

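The EPAS1 fall kept its direction and its call in all 17 settings, at -1.26 to -1.04 with adjusted p of 1.32e-06 to 0.009. The count of 145 called genes did not hold: it was 404 after quantile normalization, 72 after median centring, 64 with only the 8 arrays fitted, 285 with trend and robust moderation, 37 without the 3 arrays with a raised floor, and 61 to 219 when 1 array was left out. Of those, 132, 72, 62, 131 and 26 were called in the same direction with all arrays for the first 5. The count of 509 against HIF-1α knockdown became 888 after quantile normalization, 337 after median centring, 980 with array weights, 259 without the 3 arrays with a raised floor and 274 to 618 when 1 array was left out. The count rose as well as fell when 1 array was left out, and the cause of these changes was not tested. With the replicate block 202 genes were called, 116 higher and 86 lower. The numbers showed no pairing of wild type with HIF-2α knockdown arrays, whose same-numbered correlations were -0.0946, -0.142, -0.0266 and -0.171. Same-numbered wild type and HIF-1α knockdown arrays gave 0.17, 0.306, 0.637 and -0.0393. Between HIF-1α and HIF-2α knockdown the values were 0.131, 0.217, 0.0278 and 0.0615. These values do not settle whether the numbers pair arrays over all 3 genotypes. The block moved neither total count by over 1.5 times.

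Among the named genes, only uncalled members of the HIF list changed sign. EGLN1 was -0.07906 after quantile normalization and -0.08513 to 0.09812 with 1 array left out. VHL was -0.02933 after quantile normalization, -0.02271 with array weights and -0.01667 to 0.1109 with 1 array left out. HIF1AN ran from -0.08823 to 0.01479 and CREBBP from -0.1406 to 0.001553 with 1 array left out. Without the 3 arrays with a raised floor HIF3A was 0.002852 and EP300 -0.02487, and 52 of the named genes lost their call. Quantile normalization also turned the sign of the near-zero medians of the iron and copper, oncofetal, lipid storage, sterol and apoptosis lists. The median of all genes moved from -0.011 to -0.018 with quantile normalization. Signal over background could not be judged, since no detection calls were used.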
